A study of Mus musculus with 12 samples.

Results

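Gm15425, Gm17087 and Gm15426 are the 3 annotated features that lie inside the mouse phosphodiesterase gene Pde10a, on the strand opposite to it, and all 3 sit in its long 5′ introns. They and Pde10a itself, 4 of the 55471 identifiers in each count table, were selected by symbol and Ensembl identifier. The selection was made with the response of these features to stimulation already known, so their values with and without stimulation are given as a description, and whether they pass a test of that contrast supports nothing. Gm15425 averaged 905 ± 53.3 counts per 1e6 gene counts (CPM) in input RNA of stimulated brain and 478 ± 49.8 CPM in naive brain (SD, n = 3 each). Gm17087, which lies beside it, averaged 344 ± 43.6 CPM in stimulated and 216 ± 25.0 CPM in naive input. Gm15426, far downstream of both, averaged 124 ± 42.1 CPM in stimulated and 118 ± 27.5 CPM in naive input. The row of Pde10a itself averaged 14.1 ± 3.46 CPM in stimulated and 13.8 ± 1.80 CPM in naive input.

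Pde10a encodes a phosphodiesterase that hydrolyses both cyclic AMP and cyclic GMP, the second messengers made by adenylyl and guanylyl cyclases. In the brain it is best known for its high level in the projection neurons of the striatum, where it limits signalling downstream of dopamine and adenosine receptors. The U1 small nuclear ribonucleoprotein (U1 snRNP) base-pairs with 5′ splice sites at the start of introns, and it also restrains cleavage and polyadenylation at sites within introns. The series asked whether neuronal stimulation alters the RNA that U1 snRNP binds.

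The 4 groups, with 3 libraries each, came from adult male C57BL6JL mice of 3 to 5 months; a shared prefix in the sample titles joins input and U1 libraries into 6 pairs, read here as 6 animals. MECS input and MECS U1 RNA came from mixed cortex and hippocampus taken 90 min after maximal electroconvulsive stimulation (MECS), a pulse train of 85 mA that lasted 1 s and gave every animal a generalized convulsion. Naive input and naive U1 RNA came from unstimulated mice handled alongside them. Input RNA was set aside from the lysate of ultraviolet-crosslinked tissue, and U1 RNA was recovered from the rest with an antibody against U1-70K, a protein of the U1 snRNP. There was no precipitate with a control antibody, so a U1 to input ratio holds association with U1 together with any other difference in RNA recovery. In bulk tissue, a change in the number of cells of a type and a change in RNA per cell cannot be told apart.

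Each library held 704432 to 1962312 counts in genes, which were 1.42 to 1.84% of its listed reads. No 2 tables were identical, and the counts of replicates differed by 2.34 to 5.71 times the chi-square per degree of freedom of pure counting error. The kit marks strand, but no source used here says how strand was set in counting. The value of Gm15425, Gm17087 or Gm15426 is therefore read as the count of the interval so annotated. Whether its reads came from the intron of Pde10a or from a transcript of the opposite strand was not tested.

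In GRCm38, Pde10a (ENSMUSG00000023868) spans chr17:8525372-8986648 on the plus strand and has 14 annotated transcripts that start at several places. Gm15425 (ENSMUSG00000084390) occupies chr17:8564258-8568860 on the minus strand, 38.9 to 43.5 kb downstream of the first Pde10a start, and is annotated as a processed pseudogene with 2711 exon bases. Gm17087 (ENSMUSG00000099104) occupies chr17:8565852-8566950 on the minus strand, in the gap between the 2 exons of Gm15425. Its gene type is protein coding, while its 1 transcript is typed as a translated processed pseudogene. Both lie in the first intron of 4 Pde10a transcripts, an intron of 229.8 to 373.0 kb. Gm15426 (ENSMUSG00000083386) occupies chr17:8765372-8765927 on the minus strand, 240.0 kb from the first start, and is a processed pseudogene of 556 bases. It lies in introns of the same 4 transcripts and of a 5th, Pde10a-214, which starts between the other features and Gm15426. Pde10a-202 and Pde10a-210 start at position 8801693, 276.32 kb from the first start, so all 3 features lie upstream of them.

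Processed pseudogenes are copies of messenger RNA inserted into the genome, so reads of a parent transcript could in principle be placed on them. The sequences below show how far each feature differs from its closest protein-coding transcript. By blastn against the GENCODE transcripts, Gm15425 matched Trip12, which encodes a ubiquitin ligase, at 89.5% identity over 2722 aligned columns. Gm17087 matched Actb, which encodes cytoplasmic actin, at 86.9% over 1135 columns, and Gm15426 matched Rpl19, which encodes a protein of the large ribosomal subunit, at 82.0% over 584 columns. For each feature, 1 window of 100 bases, the read length, is printed 5′ to 3′ on the strand of the transcript with the aligned window of the parent, and capitals mark the bases that differ.

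Gm15425, chr17:8564947-8565046, minus strand: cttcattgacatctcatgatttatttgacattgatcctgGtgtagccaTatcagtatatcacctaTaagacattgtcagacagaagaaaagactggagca
Trip12, chr1:84730545-84730644, minus strand: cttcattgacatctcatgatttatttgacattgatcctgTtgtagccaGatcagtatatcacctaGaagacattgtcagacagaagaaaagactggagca
Gm17087, chr17:8566056-8566155, minus strand: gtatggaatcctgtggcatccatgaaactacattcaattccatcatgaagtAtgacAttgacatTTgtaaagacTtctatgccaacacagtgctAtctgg
Actb, chr5:142904149-142904248, minus strand: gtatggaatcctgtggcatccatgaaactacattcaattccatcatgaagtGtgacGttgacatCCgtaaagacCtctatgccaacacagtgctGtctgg
Gm15426, chr17:8765817-8765916, minus strand: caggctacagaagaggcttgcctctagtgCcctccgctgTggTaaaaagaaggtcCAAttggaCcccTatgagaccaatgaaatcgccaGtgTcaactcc
Rpl19, chr11:98027829-98027928, plus strand: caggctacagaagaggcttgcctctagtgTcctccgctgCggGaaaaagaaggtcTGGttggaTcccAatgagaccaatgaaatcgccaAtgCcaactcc

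These windows are among the closest ones, with 3, 6 and 10 differing bases for Gm15425, Gm17087 and Gm15426, where the median window had 8, 8 and 19. The longest run identical to the parent was 70 bases for Gm15425, 62 for Gm17087 and 36 for Gm15426, so no 100-base read without errors would match a feature and its parent equally. Gm15426 shared a run of 115 bases with another annotated pseudogene, which makes 16 of its 457 possible 100-base windows identical there, and that pseudogene had 8 to 55 counts per library. The rows of the parents were low, with 16 to 31 counts per library for Trip12, 8 to 39 for Actb and 0 to 6 for Rpl19. Actb and Rpl19 are known as abundant transcripts, so a low row under a gene's own symbol does not show that little of its messenger RNA was present. Summed over the 12 libraries, the median of 40070 features with no gene on the opposite strand was 0.542 counts per exon kb. The features had 327 to 2022, 147 to 868 and 81 to 277 counts for Gm15425, Gm17087 and Gm15426. Reads placed at several positions were 1.59 to 1.91% of each library.

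The strand of Pde10a in these intervals was searched for AATAAA, the common polyadenylation signal, and for GTAAGT, a strong form of the 5′ splice site that U1 recognises. A link of either motif to U1 or to the counts was not tested. AATAAA occurred at 2 places in Gm15425 and at none in Gm17087 or Gm15426. Among intron features of the annotation at least as long, 61.89% of 824, 31.3% of 2169 and 14.87% of 3571 held it in their first 2711, 1099 and 556 exon bases. Both matches are shown on the plus strand with 20 bases on either side and the motif in capitals.

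chr17:8565002-8565047, plus strand: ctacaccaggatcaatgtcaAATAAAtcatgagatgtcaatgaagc
chr17:8568072-8568117, plus strand: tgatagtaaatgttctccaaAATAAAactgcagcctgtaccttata

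On the minus strand AATAAA occurred at 1 place in Gm15425 and at none in the others, where 64.93, 34.02 and 17.03% of the same sets held it. GTAAGT occurred on neither strand of any of the 3, where 37.14, 15.49 and 7.9% of the sets held it on the opposite strand and 28.4, 12.13 and 5.29% on the strand of the feature.

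**Figure D1:**
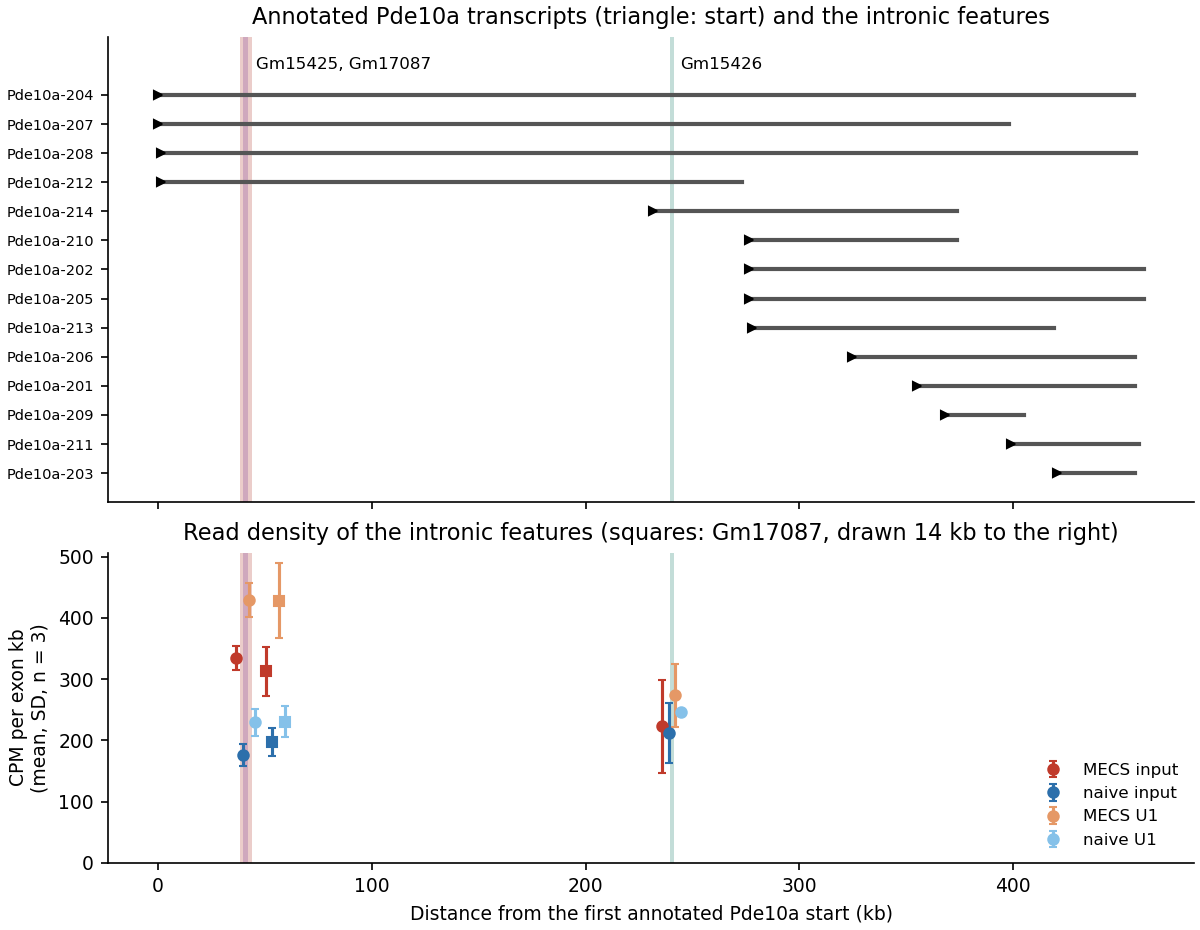
Top, the annotated Pde10a transcripts drawn to scale along the distance in kb from the first start, with triangles at the starts and shaded bars at the intronic features. Bottom, mean CPM per kb of exon with SD (n = 3 libraries a group) for the intronic features. Gm15425 and Gm17087, at about 40 kb, stand at 334 and 313 in MECS input and at 176 and 197 in naive input. The groups of Gm15426, at 240 kb, overlap.

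Per length, the rows of the intronic features held far more counts than the row of Pde10a. As for Actb and Rpl19, the low Pde10a row does not show how densely its exons were covered. The ratios below therefore compare rows of the count table, not intron with exon RNA. Summed over the 12 libraries, Gm15425 held 4482 counts per exon kb, Gm17087 4496 and Gm15426 3577. They ranked at percentiles 98.6, 98.7 and 97.7 among 6088 features that lie in introns of a gene on the other strand, whose median was 155.8. The Pde10a row held 15.64 counts per kb over its 12849 exon bases. In single libraries, the density over Gm15425 and Gm17087 together was 256 to 363 times that of the Pde10a row in MECS input and 145 to 204 times in naive input. It was 375 to 513 times in MECS U1 and 108 to 392 times in naive U1. The nearest protein-coding genes on either side, the transcription factor gene T and 1700010I14Rik, had 0 to 2 and 0 counts per library.

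Gm15425 was the most abundant of the features. Its level was 863, 965 and 887 CPM in the 3 MECS input libraries and 430, 473 and 529 CPM in the naive input libraries. It was 1126, 1111 and 1251 CPM in MECS U1 and 653, 659 and 554 CPM in naive U1. In both kinds of RNA every MECS library lay above every naive library. A separation of 3 libraries from 3 has an exact permutation p of 0.1 at the least, and how many other features separate so is not given here. The fitted log2 difference, MECS over naive, was 0.90 (SE 0.15) in input and 0.89 (SE 0.14) in U1.

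Gm17087 had 327, 393 and 311 CPM in MECS input and 193, 213 and 243 CPM in naive input. It had 472, 403 and 537 CPM in MECS U1 and 261, 277 and 223 CPM in naive U1. Here too the MECS and naive libraries did not overlap in either kind of RNA, although the gap in input, between 243 and 311 CPM, was narrower than that of Gm15425. The fitted log2 difference was 0.64 (SE 0.16) in input and 0.88 (SE 0.15) in U1.

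Gm15426 had 161, 133 and 77.9 CPM in MECS input and 108, 149 and 97.0 CPM in naive input. It had 185, 141 and 131 CPM in MECS U1 and 138, 139 and 133 CPM in naive U1. The groups overlapped in both kinds of RNA, and the lowest of the 12 values was in a MECS input library. The fitted log2 difference was 0.08 (SE 0.21) in input and 0.14 (SE 0.16) in U1.

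The Pde10a row, the count under the annotated exons of the gene, is not read here as a level of its messenger RNA, for the reason given for Actb and Rpl19. It had 15, 20 and 14 counts in MECS input and 15, 11 and 17 in naive input. In U1 RNA it had 15, 13 and 26 counts with MECS and 11, 16 and 28 in naive brain. Its groups overlapped throughout, with fitted log2 differences of 0.02 (SE 0.39) in input and −0.24 (SE 0.42) in U1. These errors are wider than those of the intronic features, so a difference of the size of that of Gm15425 would have been hard to detect in this row.

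The sum of the 3 features was 1372 ± 109 CPM in MECS input and 812 ± 72.0 CPM in naive input, and 1786 ± 132 CPM in MECS U1 and 1012 ± 89.0 CPM in naive U1 (SD, n = 3 each).

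**Figure D2:**
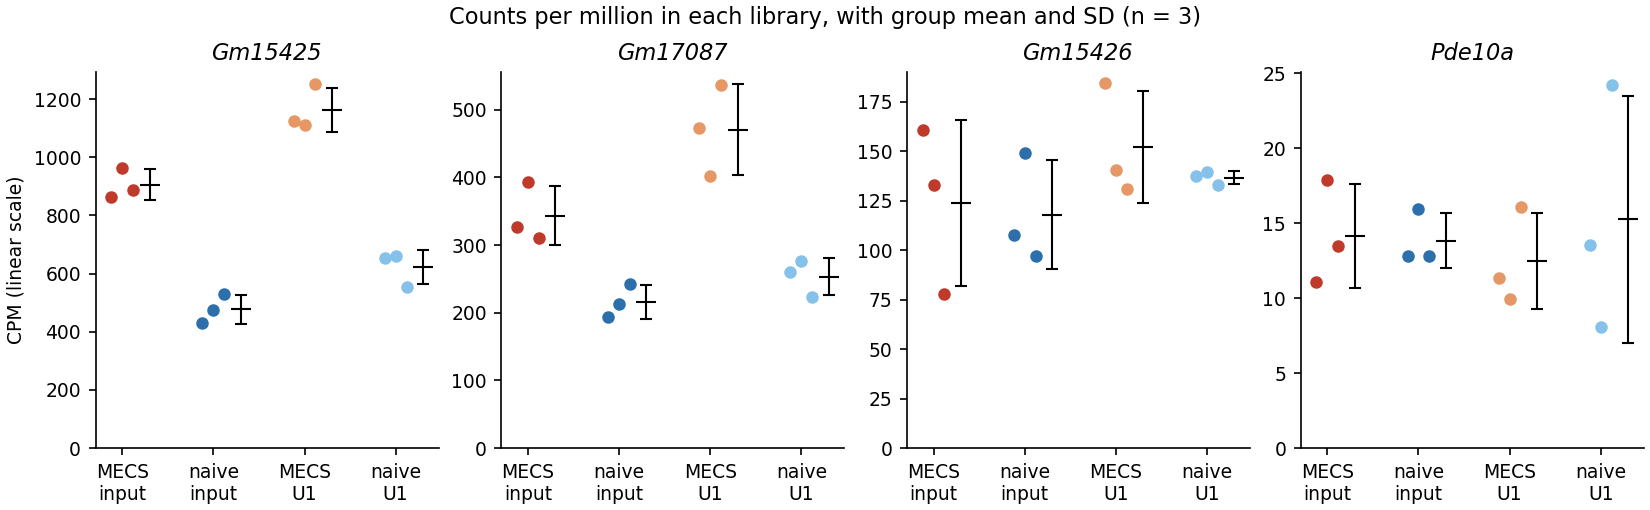
CPM on a linear axis from 0 for each of the 12 libraries, 1 point a library, with the group mean and SD (n = 3) as bars. For Gm15425 and Gm17087 the MECS points lie above the naive points in input and in U1; for Gm15426 and Pde10a they overlap.

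The features at about 40 kb moved together, while the feature at 240 kb did not follow them. Across the 12 libraries, the log2 CPM of Gm15425 and Gm17087 correlated at r = 0.975, while Gm15426 correlated with them at 0.268 and 0.327. These values are a description, since the 12 libraries fall into groups and share their scaling. Per kb, Gm17087 held 0.864 to 1.005 times the density of Gm15425 in MECS input and 1.11 to 1.13 times in naive input. In U1 RNA the ratio was 0.894 to 1.06 with MECS and 0.985 to 1.04 in naive brain. In MECS input the means were 334 CPM per exon kb for Gm15425 and 313 for Gm17087.

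The density of Gm15426 relative to that over the 2 proximal features needs no scaling between libraries. It was 0.925, 0.672 and 0.446 in the MECS input libraries and 1.18, 1.49 and 0.861 in the naive input libraries. In U1 RNA it was 0.792, 0.637 and 0.503 with MECS and 1.03, 1.02 and 1.17 in naive brain. All 6 MECS values were below 1 and 5 of the 6 naive values were above it. The groups did not overlap in U1 RNA and overlapped in input, where the highest MECS value was 0.925 and the lowest naive value 0.861. On the log2 scale the mean ratio was −0.62 ± 0.53 in MECS input and 0.20 ± 0.40 in naive input, a difference of −0.82. It was −0.66 ± 0.33 in MECS U1 and 0.10 ± 0.11 in naive U1, a difference of −0.76 (SD, n = 3 each). No test was made, since this ratio rests on the contrast that selected the features.

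**Figure D3:**
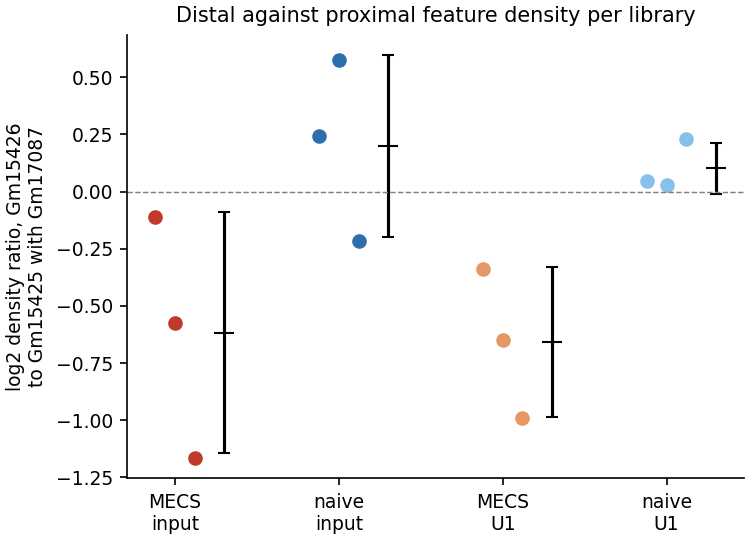
Log2 ratio of the counts per exon kb of Gm15426 to those of Gm15425 and Gm17087 together, 1 point a library, with group mean and SD (n = 3); 0 means equal density. The MECS libraries lie between −1.17 and −0.11, and the naive libraries between −0.22 and 0.57.

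Expressed as a share of the counts of the 3 features, Gm15426 took 6.11 to 11.9% in MECS input and 11.2 to 17.9% in naive input. It took 6.83 to 10.4% in MECS U1 and 13.0 to 14.6% in naive U1. Gm15425 took 63.9 to 69.5% in MECS input and 56.7 to 60.9% in naive input. The share of Gm17087 stayed between 24.2 and 28.0% in all 12 libraries.

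The U1 against input comparison was not used in the selection. The mean levels of all 3 intronic features were above those of input in U1 RNA, in MECS and in naive brain, but none passed the threshold in the unpaired fits. In MECS brain the fitted log2 difference, U1 over input, was 0.36 (SE 0.13) for Gm15425, 0.46 (SE 0.15) for Gm17087 and 0.29 (SE 0.20) for Gm15426. The adjusted p-values by edgeR's quasi-likelihood test were 0.0892, 0.0546 and 0.489. With the animal as a block, Gm15425 at 0.36 (adjusted p = 0.0110) and Gm17087 at 0.45 (adjusted p = 0.00192) passed the threshold, and Gm15426 at 0.32 (adjusted p = 0.127) did not. The count of intronic features called was 0 of 3 without the block and 2 of 3 with it, beside 8.51% of 10791 features called without it and 13.8% with it. The sum of the 3 differed by 0.31 (SE 0.12), with an adjusted p of 0.114 without the block and 0.0335 with it, beside 11% and 18.7% of 3168 such sums called.

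In naive brain the log2 difference was 0.39 (SE 0.16) for Gm15425, 0.23 (SE 0.16) for Gm17087 and 0.24 (SE 0.18) for Gm15426. The adjusted p-values by the same test were 0.125, 0.458 and 0.509, and 0 of 3 passed where 10.5% of 10918 features did. The block changed no call there, and the sum differed by 0.31 (SE 0.14, adjusted p = 0.138), where 16.4% of 3099 sums were called. The Pde10a row differed by −0.15 (SE 0.36, adjusted p = 0.876) in MECS brain and by 0.12 (SE 0.43, adjusted p = 0.920) in naive brain.

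The ratio could be followed within each animal, because input and U1 RNA with the same prefix were read as 1 lysate. For Gm15425 the log2 ratio of U1 to input was 0.38, 0.20 and 0.50 in the MECS mice and 0.60, 0.48 and 0.07 in the naive mice, above 0 in 6 of 6. For Gm17087 it was 0.53, 0.03 and 0.79 in the MECS mice and 0.43, 0.38 and −0.12 in the naive mice. For Gm15426 it was 0.20, 0.08 and 0.75 in the MECS mice and 0.35, −0.10 and 0.45 in the naive mice. Both Gm17087 and Gm15426 were thus above 0 in 5 of 6 animals, with spreads between animals about as large as the means. For the Pde10a row it ran from −0.94 to 0.90.

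**Figure D4:**
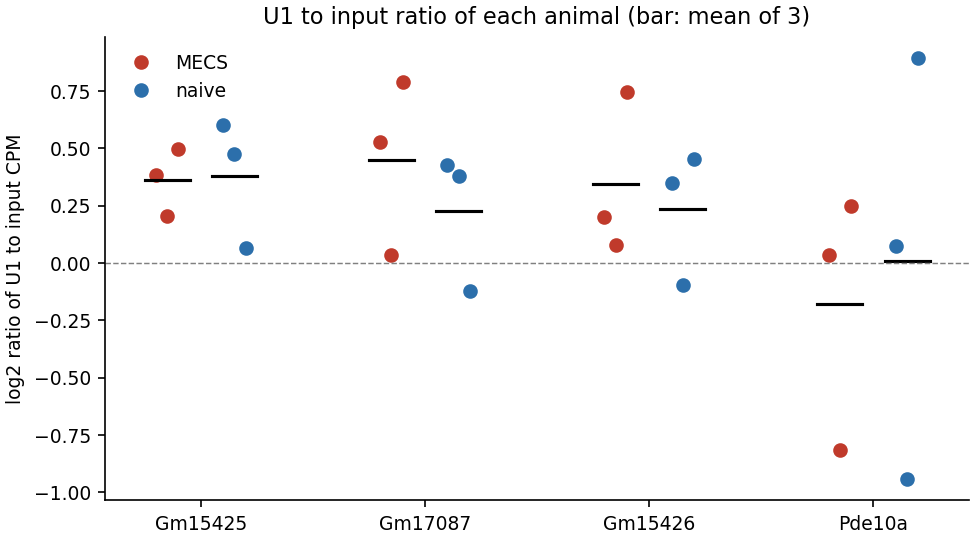
Log2 ratio of U1 to input CPM in each animal (pseudocount 0.5 CPM), MECS mice left and naive mice right, with a bar at the mean of 3; 0 means equal CPM. Gm15425 lies above 0 in all 6 animals, at 0.07 to 0.60, and the MECS and naive ranges overlap for each of the 4.

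In no pair of the 4 was the difference in this ratio larger than the spread between animals. In the 6 pairs of features, the mean difference over the 6 animals ran from 0.03 (SD 0.20, Gm15425 minus Gm17087) to 0.46 (SD 0.77, Gm15425 minus Pde10a). By 2-sided exact permutation tests with sign flips within animals, p was 0.125 to 0.8125 and the adjusted p 0.5 to 0.8125, where the smallest p that 6 animals allow is 0.03125. The shares of the 3 features in their summed counts differed between U1 and input by −1.61 to 2.63 percentage points, with exact permutation p-values of 0.2 to 0.9 in 6 tests (adjusted p 0.6 to 0.9; the smallest p for 3 against 3 is 0.1).

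Other features in introns had ratios of the same order. The median log2 difference between U1 and input over features in introns of an opposite gene was 0.113 in MECS brain and 0.099 in naive brain, against 0.017 and 0.028 over all features tested. Among the 2924 intron features tested in MECS brain, Gm15425, Gm17087 and Gm15426 ranked at percentiles 77.4, 83.1 and 70.7. Among the 2871 tested in naive brain they ranked at 76.8, 63.1 and 63.95. In all, 119 intron features (4.07%) were called higher in U1 than in input in MECS brain and 146 (5.09%) in naive brain, beside 3.3% and 4.19% of all features tested.

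The sum over Pde10a introns was also set beside 3 other genes with intronic features, chosen after their values were seen. Adamts9 encodes a secreted metalloproteinase, Ppm1h a protein phosphatase and Kcnq1 a potassium channel. The log2 ratio of U1 to input averaged 0.35 (SD 0.21) over the 6 animals for Pde10a, 0.70 (SD 0.17) for Adamts9, 0.07 (SD 0.24) for Ppm1h and 1.73 (SD 0.33) for Kcnq1. The Pde10a sum was below Kcnq1 in 6 of 6 animals, with a mean difference of −1.38, below Adamts9 in 5 of 6 and above Ppm1h in 5 of 6. No test is given, because these genes were picked with the ratios in view.

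The last comparison asked whether MECS changed the ratio of U1 to input. It uses the same 12 libraries as the comparisons above. The interaction on the log2 scale was −0.02 (SE 0.20) for Gm15425, 0.23 (SE 0.22) for Gm17087, 0.05 (SE 0.29) for Gm15426 and −0.27 (SE 0.57) for Pde10a, each with an adjusted p of 0.997 by edgeR's quasi-likelihood test. For the sum of the 3 it was 0.05 (SE 0.18). Of 12184 features 0 were called (0%), 383 had an unadjusted p under 0.05, and DESeq2 called 0. The MECS difference of Gm15425 was thus of nearly the same size in input and in U1 RNA.

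**Figure D5:**
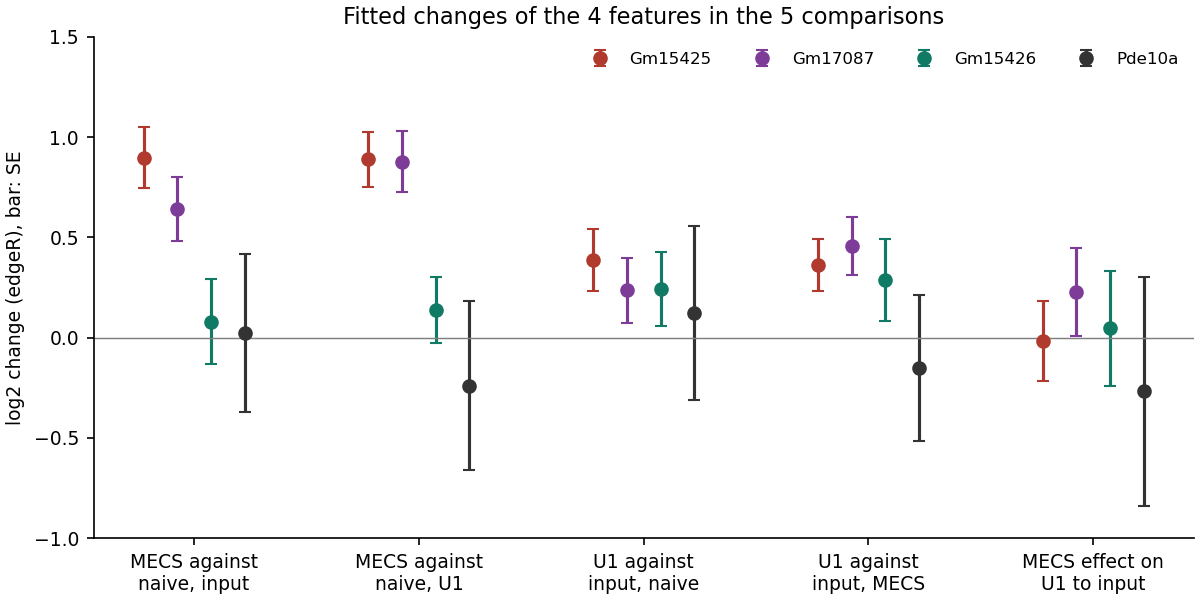
Fitted log2 difference with SE for the 4 features in the 5 comparisons, with 0 as no difference. Gm15425 and Gm17087 stand at 0.64 to 0.90 for MECS against naive and at 0.23 to 0.46 for U1 against input; the interaction values lie within −0.27 to 0.23.

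Other genes of cyclic nucleotide signalling were read from fixed lists, by the row of their own symbol and by the summed features inside them on the opposite strand, the way the intronic features represent Pde10a. After MECS, 0 of 12 measured phosphodiesterases of 23 passed the threshold in input by own symbol and 0 of 9 by features inside them, with median log2 differences of −0.15 and 0.13 beside −0.02 and −0.01 over all rows, of which 0.606% and 1.12% were called. In U1 RNA 0 of 13 and 0 of 9 were called, beside 0.386% and 0.534% of all rows. Pde4d, a cyclic AMP phosphodiesterase gene, stood at −1.05 (SE 0.48, adjusted p = 0.366) in input by features inside it and at −0.76 (SE 0.35, adjusted p = 0.466) by own symbol. Features inside Pde7b, which encodes a cyclic AMP phosphodiesterase also known from striatum, had 145 ± 17.7 CPM in MECS input and 100 ± 16.7 CPM in naive input (0.45, SE 0.17, adjusted p = 0.250). In U1 they had 178 ± 21.8 CPM with MECS and 122 ± 16.1 CPM in naive brain (0.47, SE 0.16, adjusted p = 0.199). Adenylyl and guanylyl cyclases, cyclic nucleotide effectors and the CREB family also had 0 called after MECS in either RNA, by own symbol or by features inside them.

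Between U1 and input, some of these genes did pass the threshold. Features inside Pde5a, a cyclic GMP phosphodiesterase gene, were higher in U1 by 1.00 (SE 0.22, adjusted p = 0.00514) in MECS brain and by 0.98 (SE 0.22, adjusted p = 0.00211) in naive brain. Those inside Pde8b, a cyclic AMP phosphodiesterase gene, were lower in MECS brain (−0.41, SE 0.13, adjusted p = 0.0432). This made 1 higher and 1 lower of 9 phosphodiesterases in MECS brain, and 1 higher and 0 lower in naive brain, where 11% and 16.4% of all such sums were called. Features inside Prkg1, which encodes a cyclic GMP-dependent kinase, were higher by 0.41 (SE 0.13, adjusted p = 0.0447) in MECS brain and by 0.82 (SE 0.14, adjusted p = 0.000174) in naive brain. Features inside Rapgef4, a cyclic AMP-activated exchange factor, differed by −0.46 (SE 0.12, adjusted p = 0.0168) in MECS brain and by −0.75 (SE 0.14, adjusted p = 0.000493) in naive brain. Those inside Rapgef3, another such exchange factor, were higher by 0.72 (SE 0.17, adjusted p = 0.00851) in MECS brain and stood at 0.42 (SE 0.23, adjusted p = 0.248) in naive brain. In all, 2 of 6 effectors were higher and 1 lower in MECS brain, and 1 was higher and 1 lower in naive brain. Of 5 cyclases 1 was higher in MECS brain, the natriuretic peptide receptor gene Npr1 at 0.93 (SE 0.28, adjusted p = 0.0366), and 0 were called in naive brain.

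By own symbol, 8.51% of all features tested were called in MECS brain and 10.5% in naive brain, and the counts below stand beside these shares. Of the phosphodiesterases, 0 of 13 were called in MECS brain and 0 of 12 in naive brain. Of 9 cyclases, 1 was lower in MECS brain, the adenylyl cyclase gene Adcy1 at −1.67 (SE 0.30, adjusted p = 0.000679), and 0 were called in naive brain. Of 10 effectors, 1 was lower in MECS brain, the kinase-anchoring protein gene Akap6 at −1.39 (SE 0.39, adjusted p = 0.0257). In naive brain 1 was higher, Akap13 at 1.34 (SE 0.35, adjusted p = 0.00862), and 1 lower, Akap9 at −0.72 (SE 0.21, adjusted p = 0.0202), both also genes of anchoring proteins. The CREB family had 0 called in either state by own symbol or by features inside it. These p-values are from edgeR's quasi-likelihood test, adjusted over all rows. Like the Pde10a row, rows by own symbol are not read here as levels of messenger RNA.

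The tissue is labelled cortex and hippocampus, while Pde10a is best known from striatum, so striatal markers were measured beside it. The 27 striatal projection neuron markers, Pde10a left out, summed to 582 to 648 CPM in MECS input and 603 to 634 CPM in naive input by own symbol. They summed to 491 to 599 CPM in MECS U1 and 552 to 570 CPM in naive U1. By the features inside them, which exist for 6 of the 27, they summed to 464 to 688 CPM in MECS input and 404 to 460 CPM in naive input, and to 424 to 620 CPM in MECS U1 and 326 to 405 CPM in naive U1. These sums did not overlap between MECS and naive libraries in either RNA, in the same direction as Gm15425 and Gm17087. The gap in input was narrow, between 460 and 464 CPM, and how many sums of other genes separate so is not given here. By fitted log2 difference, 4 of the 6 were higher with MECS in input and 6 of 6 in U1. Features inside Syndig1l, 1 of the 6, stood at −0.46 (SE 0.37) in input. In input and in U1, 0 of the 6 passed the threshold, where 1.12% and 0.534% of all such sums were called. The largest part of the marker sums came from features inside Ppp1r1b, which encodes the striatal phosphoprotein DARPP-32, at 348 ± 97.1 CPM in MECS input and 261 ± 18.5 CPM in naive input (SD, n = 3 each). By own symbol Ido1 was at 0 in all naive input libraries, Pdyn in all U1 libraries and Isl1 in all naive U1 libraries, and none of the 27 in all MECS input libraries. Such a row is not read as a level of messenger RNA, so a 0 does not show that a marker was absent. The part of these markers in the difference of Gm15425 and Gm17087 was not tested. The 12 cortical and hippocampal excitatory neuron markers summed to 379 to 527 CPM in MECS input and 393 to 492 CPM in naive input by own symbol, and overlapped in U1 too, at 379 to 507 CPM with MECS and 369 to 520 CPM in naive brain; none of the 12 was at 0 throughout a group. Of the 3 with features inside them, those inside Cux2, an upper-layer transcription factor gene, had 84.7 ± 49.0 CPM in MECS input and 34.1 ± 0.902 CPM in naive input (1.24, SE 0.31, adjusted p = 0.0495).

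Among 7684 other named features with a mean of at least 5 CPM, the 8 whose log2 CPM over the 12 libraries was most like that of the summed intronic features were Arl6ip4, Apobec4, Cdc42se2, Nsd1, AU040972, Pitpnm2os2, Olfr457 and Aagab, at r = 0.925 to 0.882. Pitpnm2os2, which lies in an intron of Pitpnm2, had a level close to that of the Pde10a features, with 638 CPM in MECS input, 339 CPM in naive input, 784 CPM in MECS U1 and 469 CPM in naive U1. AU040972, which lies in an intron of the neurofibromin gene Nf1, had 174 CPM in MECS input, 132 CPM in naive input, 195 CPM in MECS U1 and 132 CPM in naive U1. Arl6ip4 had 68.7 CPM in MECS input, 35.8 CPM in naive input, 80.1 CPM in MECS U1 and 45.6 CPM in naive U1. The likeness was measured over libraries that hold the MECS difference, so the higher MECS means of these features follow from how they were picked.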

How the data were processed

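RNA was measured by single-end sequencing of 12 libraries, 3 in each of MECS input, naive input, MECS U1 and naive U1. The deposited tables, 1 a library, hold the authors' whole-number counts, not normalized, by Ensembl gene identifier. Per the submitters' processing notes, without roles, the build was mm10 and the tools were DESeq2, FastQC, Trimmomatic 0.39, Salmon 1.4, HISAT2 2.2.0 and StringTie 2.1.3. The sources used here do not name the program, strand setting or annotation that made the counts. Table entries without a gene entered no library size or test; reads in no feature were 88.3 to 91.3% of each library. Rows with few counts, such as Pde10a, have wide errors.

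Symbols, coordinates and transcript sequences are from GENCODE M21 (GRCm38), which 55144 identifiers matched and 327 did not. A feature was assigned to an opposite-strand gene where 50% or more of its exon sequence lay in exactly 1 such gene and at most 10% in any other, and called intronic where at least 80% of the overlap was intronic. Sums over such features used their own library sizes. Groups were compared with edgeR 4.0.16 in R 4.3.3 (TMM, filterByExpr, quasi-likelihood test, Benjamini-Hochberg adjustment over all rows at 0.05), 2 groups a fit and all 12 libraries for the interaction, tested first on simulated data. SE is the log2 difference divided by the square root of F. CPM use TMM-scaled totals. Likeness used a pseudocount of 1 CPM. Exact permutation tests used scipy 1.17.1, and sequences were aligned with blastn 2.17.0. Percentiles are the share of features with a lower or equal value, the feature itself included.

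Input and U1 libraries that share a title prefix were taken as 1 animal. Their deviations from group means correlated over 12184 features at 0.114, 0.219 and 0.116 in the paired MECS libraries and at 0.016, −0.098 and −0.016 in the naive ones. The labels do not state the pairing or any pooling outright, so p-values measure the spread between these samples. Alternatives were RLE (DESeq2 1.42.0) or library size scaling, other filters, DESeq2, leaving out mitochondrial genes, ribosomal RNA and small RNAs, 1 fit of all libraries, a replicate block, other pseudocounts and leaving out each library. The features and gene lists were chosen with earlier results of these data known. Named genes were the 4 features, the neighbours of Pde10a, up to 4 genes of each list with the smallest p and every one past the threshold, and the 8 most alike features; the parents of the pseudogenes, the pseudogene that shares sequence with Gm15426, Adamts9, Ppm1h and Kcnq1 were added after their values were seen. Some genes that met this rule are not reported here.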

Additional observations from a re-analysis of the deposited data

How the results depend on the processing

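No called difference of the 3 intronic features or their sum changed sign under the alternatives tried, and U1 over input was positive for each of the 3 in all of them. Values that were not called and lay near 0 did cross it: for MECS against naive, Gm15426 ran from −0.13 to 0.34 in input and from −0.02 to 0.25 in U1 when 1 library was left out, and the interaction of Gm15425 ran from −0.10 to 0.07. The Pde10a row crossed 0 in all 5 comparisons, from −0.16 to 0.21 and −0.61 to 0.32 for MECS against naive in input and U1, −0.39 to 0.05 and −0.43 to 0.50 for U1 against input in MECS and naive brain, and −0.65 to 0.29 for the interaction, so its direction is not given by these data. In input, MECS against naive called 63 features, and 129 with library size scaling, 111 with no filter, 97 with a filter on CPM and 142 with the replicate block; leaving out 1 library gave 19 (naive input 1) to 114 (MECS input 1), with 21, 31 and 24 without naive input 2, naive input 3 and MECS input 3. Calls of the 3 intronic features between MECS and naive brain restate how they were selected: in input 1 was called, and 2 with RLE or library size scaling, no filter, a filter on CPM, DESeq2, leaving out mitochondrial genes, ribosomal RNA and small RNAs, a joint fit of all 12 libraries or the replicate block, and 1 to 2 when 1 library was left out (2 without MECS input 1). With library size scaling their sum differed by 0.85 in place of 0.69. In U1, MECS against naive called 43 features, and 151 with no filter, 92 with a filter on CPM, 86 by DESeq2 and 88 in 1 fit of all libraries; leaving out 1 library gave 13 (MECS U1 1) to 225 (naive U1 2), with 15 and 121 without naive U1 1 and MECS U1 2, and 1 to 2 of the 3 intronic features (1 without naive U1 1). U1 against input called 1141 features in naive brain, and 711 to 1254 when 1 library was left out (711 without naive input 1). In MECS brain it called 918, and 1488 with the animal as replicate block, where the sum of the 3 was 0.31. Of the 3 intronic features 0 were called there, 2 with the block, 1 (Gm17087, adjusted p = 0.0483 by edgeR) without mitochondrial genes, ribosomal RNA and small RNAs, and 0 to 1 when 1 library was left out, with Gm17087 at an adjusted p of 0.0310 without MECS input 2 and 0.0330 without MECS U1 2. The interaction called 0 features, 1 with library size scaling, no filter, a filter on CPM or the replicate block, and 0 to 1 when 1 library was left out. The block changed no other call of the single features. Between MECS and naive brain the sum of the 3 was called in input and in U1, but not in U1 with the block. In input it was not called without naive input 1, naive input 2 or MECS input 3. In U1 it was not called without naive U1 1, MECS U1 1 or MECS U1 3. These calls of the sum also restate how the features were selected. The replicate number ties no MECS animal to a naive one. The other 568 values stayed on their side of the threshold or within their spread; the cause of the moves was not tested. At 11 to 28 counts per library the Pde10a row had wide errors; why it is low was not tested.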
